A study of Mus musculus with 2 samples.

Results

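A set of 10 genes that yolk sac endoderm uses to load, carry and take up lipids, vitamins and plasma protein were followed here through single cells of mouse chimeras, in spliced and unspliced transcripts. The set was a fixed list of 10 of the 29453 genes in the count tables, namely the apolipoprotein genes *Apoa1*, *Apoa4*, *Apob*, *Apoe* and *Apom*, the carrier genes *Ttr*, *Rbp4* and *Afp*, and the receptor genes *Amn* and *Cubn*. They were read in 3 places: in cells of visceral endoderm, in gut, and, as a low level of RNA, in cells of other kinds. In visceral endoderm-like cells the 10 genes together held 41999.5 of every 1000000 spliced transcript counts (CPM), in gut 876 CPM and in cells outside endoderm 19.9 CPM, all in the wildtype fraction. The tables hold only a small part of the *Apoe* transcripts that were first counted, as described below, and without *Apoe* these sums were 41826, 868 and 16.9 CPM. Beside *Apoe*, gut carried mainly *Ttr* and *Rbp4*. In tdTom+ (*Gata1*-) against tdTom- (wildtype) cells, *Afp* was lower over gut as a whole and *Ttr* and *Apom* were lower outside endoderm, with 1 library on each side. *Afp* and *Apom* passed the minimum count for a call through the tdTom- cells, where they were high. When every cell was thinned to 5000 UMIs the *Apom* call was lost (log2 fold change -0.95 in place of -1.34), and *Afp* (-1.66 in place of -1.499) kept too few UMIs for a call. Thinning removes most UMIs of such genes, so a call lost there says little about the difference.

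The study injected male embryonic stem cells that carry a tdTomato reporter and a *Gata1* frameshift of 38 bp in exon 4 into wildtype C57BL/6 blastocysts, and sorted the resulting chimeras by fluorescence. The tdTom+ fraction holds the *Gata1*- descendants of 1 injected clone, and the tdTom- fraction holds host cells with an intact gene. Cells of 6 embryos were pooled before sorting, so no value can be assigned to an embryo. Each fraction is 1 library. The age label reads embryonic day 8.5 for tdTom+ and 8.6 for tdTom-, while both sample titles and the study's methods give 8.5. Both fractions were sorted from the same pooled embryos. With 1 library per fraction there is no replicate and hence no test: intervals below are 95% intervals of counting error only, and a difference between fractions cannot be told apart from a difference between these libraries.

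Visceral endoderm is the outer, absorptive epithelium of the yolk sac. Before the placenta works, it takes up maternal nutrients by endocytosis and secretes plasma proteins and lipoproteins to the embryo, a task that the fetal liver later assumes. *Apob* encodes the scaffold of large lipoprotein particles, *Apoa1*, *Apoa4*, *Apoe* and *Apom* encode exchangeable or high-density lipoprotein components, *Rbp4* encodes the plasma carrier of retinol, which travels bound to the transthyretin encoded by *Ttr*, *Afp* encodes the major plasma protein of the fetus, and *Cubn* and *Amn* encode the subunits of the endocytic receptor cubam.

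The tdTom+ library held 8981 cell barcodes and the tdTom- library 9252, with a median of 17598 and 15996 spliced unique molecular identifiers (UMIs) per cell. Spliced *Gata1*, the targeted gene, was lower in the fraction labelled mutant, with 6.73 CPM against 29.3 CPM in the other. Unspliced *Gata1* went the other way, with 1532 UMIs in tdTom+ and 413 in tdTom- cells. The libraries shared 18 barcode sequences, none of them in a visceral endoderm-like cell and 2 of them in tdTom+ gut cells. The reporter column was 0 in both libraries and gave no check of the sort. *Xist*, which female cells express, reached 3 UMIs in 0.478% of tdTom+ cells and in 44.6% of tdTom- cells. After doublet calls were removed, 8578 tdTom+ and 8704 tdTom- cells remained, in clusters made without the 10 genes.

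Promoter sequence is shown for the 3 members that differed most between the subsets of visceral endoderm-like cells described below, *Afp*, *Apoa1* and *Apoa4*, and for *Apob*, the gene of the lipoprotein scaffold. Each window is the plus strand ahead of whichever of the RefSeq and GENCODE gene starts comes first, with the sequence from RefSeq (GRCm38.p6), and capitals mark the matches to GTTAAT (found in HNF1 sites), CAAAGT (in HNF4 sites) and TATAAA (the TATA box). TGTTTAC (in FOXA sites) and AGATAA (in GATA sites) were searched as well, on both strands.
*Afp*, chr5:90490604-90490713: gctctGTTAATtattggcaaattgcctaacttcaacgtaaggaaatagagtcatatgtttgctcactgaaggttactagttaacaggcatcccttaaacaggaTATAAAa
*Apoa1*, chr9:46228470-46228579: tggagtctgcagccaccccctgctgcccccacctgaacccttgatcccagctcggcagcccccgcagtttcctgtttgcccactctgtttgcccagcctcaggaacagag
*Apoa4*, chr9:46240594-46240695: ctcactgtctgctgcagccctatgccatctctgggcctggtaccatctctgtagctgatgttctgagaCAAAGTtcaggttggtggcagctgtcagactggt
*Apob*, chr12:7977538-7977647: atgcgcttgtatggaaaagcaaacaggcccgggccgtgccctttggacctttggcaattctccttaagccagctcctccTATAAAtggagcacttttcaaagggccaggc
The *Afp* window held TATAAA 30 bases and GTTAAT 128 bases before the GENCODE start, *Apob* held TATAAA at 31 bases and *Apoa4* held CAAAGT at 34 bases. Before the RefSeq start, which lies elsewhere, the same matches stand at 7 and 105 bases for *Afp*, 60 bases for *Apob* and 182 bases for *Apoa4*. The *Apoa1* window held none of the 5 motifs. Over the full promoter entries, which 9 members had, TATAAA was found in 1 entry each of *Apob*, *Apoe*, *Rbp4* and *Afp*, where *Apoe* and *Rbp4* have more than 1 entry, and in 12.4% of the 32851 single entries of the same table. GTTAAT was found in *Apoe* and *Afp* (6.43% of all promoters), CAAAGT in *Apoa4* (12.6%), TGTTTAC in *Rbp4* (3.17%) and AGATAA in none (9.99%). A match is a description of letters, not a bound site.

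In the annotation of the same build, *Apoa1* (chr9:46228580-46230466, plus strand) and *Apoa4* (chr9:46240696-46243459, plus strand) lie 10230 bases apart. *Apob* (chr12:7977648-8016835, plus strand) and *Amn* (chr12:111271095-111276426, plus strand) lie far apart on 1 chromosome. *Afp* lies at chr5:90490737-90508907 on the plus strand, *Apoe* at chr7:19696109-19699188, *Apom* at chr17:35128997-35132050, *Rbp4* at chr19:38116629-38125281 and *Cubn* at chr2:13276338-13491813, all 4 on the minus strand.

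The visceral endoderm-like cluster held 10 tdTom+ and 64 tdTom- cells. It raised 16 of the 18 naming markers, none of which is among the 10 genes, and was led by *S100g*, *Spink1*, *Ctsh*, *Lgals2* and *Folr1*. *Apoc2*, with 1 UMI in the tdTom- cells, was among the markers that were not raised. A UMI count from transcript 3′ ends does not scale with gene length, so levels were compared between genes directly. *Apoe* is the exception, because most of its first counted transcripts are missing here, as described below.

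In the tdTom- visceral endoderm-like cells the retinol transport pair led the set. *Ttr* stood at 12929 CPM (12743 to 13117) and *Rbp4* at 10655 CPM (10486 to 10826). *Apoa1*, the main protein of high-density lipoprotein, followed at 8274 CPM (8126 to 8425). These 3 genes held 30.8%, 25.4% and 19.7% of all spliced UMIs of the set. Among the other secreted proteins, *Apom*, which carries sphingosine 1-phosphate in plasma, stood at 3736 CPM (3637 to 3838), *Afp* at 2155 CPM (2079 to 2232) and *Apob* at 1635 CPM (1570 to 1703). *Apoa4*, a component of lipoproteins from intestine and yolk sac, stood at 483 CPM (448 to 521). *Apoe*, a ligand for lipoprotein receptors, was lowest at 174 CPM (153 to 197), but only as counted in the small part that was kept. Of the receptor subunits, *Amn*, which anchors the receptor in the membrane, stood at 1356 CPM (1296 to 1418) and *Cubn*, which binds the ligand, at 602 CPM (563 to 644). No interval of one gene overlapped that of the next in this order. *Apoa1*, *Apom*, *Ttr* and *Rbp4* had a UMI in all 64 cells, and the other 6 genes in 58 to 61 of them.

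**Figure D1:**
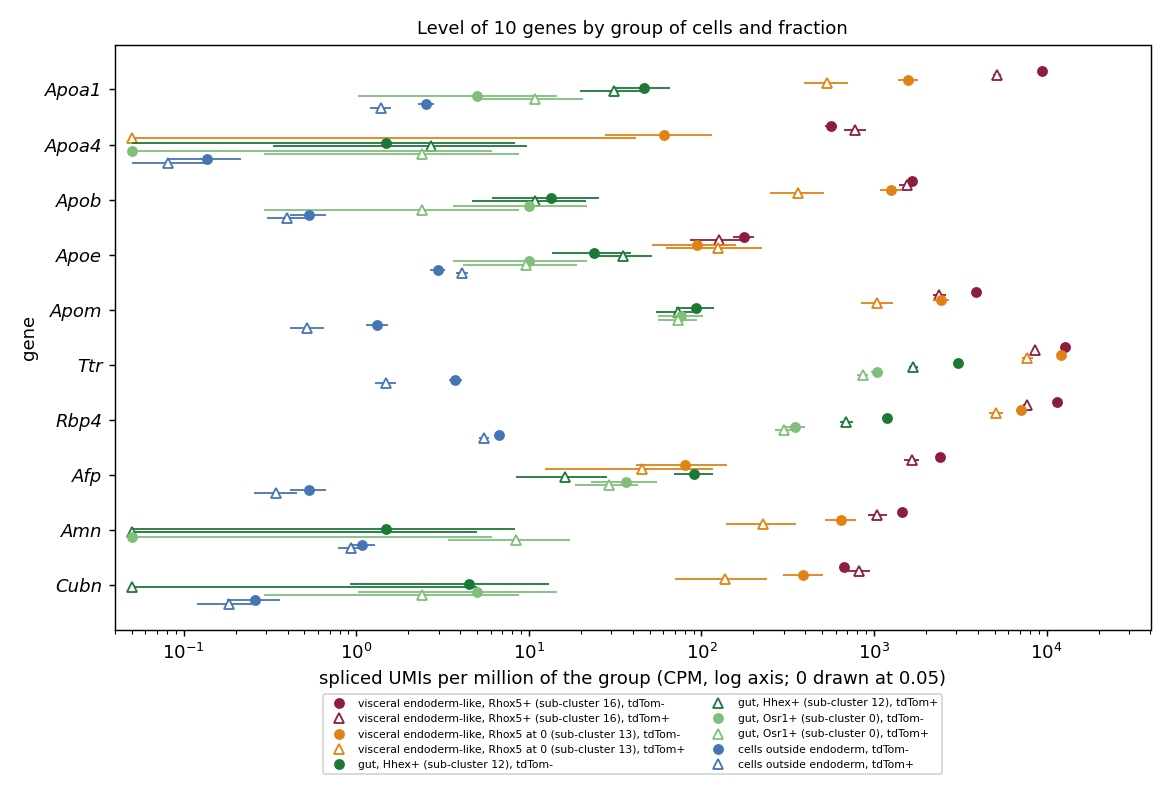
Spliced level of each of the 10 genes in CPM (log axis) by cell group and fraction, with 95% counting intervals. *Ttr* and *Rbp4* stay highest in gut. *Apoa1* stood at 8274 CPM over all tdTom- visceral endoderm-like cells and at 12.2 CPM over all tdTom- gut cells, of which only some sub-clusters are drawn.

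All 10 members were at least 2-fold higher in the tdTom- visceral endoderm-like cells than in all other kept tdTom- cells, where 12.1% of 12434 genes with 100 UMIs or more were higher by the same rule. A call here and below is a difference of at least 2-fold whose counting interval excludes no difference. The 10 log2 fold changes had a median of 10.34, against -0.34 over all genes measured, and ran from 5.77 for *Apoe* to 11.53 for *Apoa4*. The clusters were made without these genes but with others that vary alongside them, so the contrast describes the cluster and does not test it. Members counted mainly in this cluster also passed the minimum through it and therefore had to differ.

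Beside *Apoe*, most transcripts of the set in the tdTom- library lay in these few cells, which held 88.8% of the UMIs of the other 9 genes. The 64 cells held 96.8% of the *Apoa4* UMIs, 96.5% of *Apoa1*, 95.3% of both *Apob* and *Cubn*, 93.8% of *Afp*, 92.0% of *Amn* and 91.9% of *Apom*. *Rbp4* at 86.8% and *Ttr* at 83.1% were less concentrated, with 7.14% and 14.2% of their UMIs in gut. *Apoe* was spread most widely, with 35.8% in visceral endoderm-like cells and 58.0% in all cells beside the visceral endoderm-like and gut clusters. In the tdTom+ library, with only 10 such cells, their share was 82.5% for *Apoa1*, 52.6% for *Ttr* and 5.57% for *Apoe*.

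When the 932 endoderm cells were clustered again without the 10 genes, visceral endoderm-like cells fell mainly into 2 sub-clusters. Sub-cluster 16 (5 tdTom+ and 48 tdTom- cells) was led by genes including *Apoa2*, *S100g* and *Slc2a2*, and all 53 cells had transcripts of *Rhox5* or *Trap1a*, genes with high expression in extraembryonic lineages. Sub-cluster 13 (6 tdTom+ and 9 tdTom- cells, of which 1 came from the gut clusters) was led by *Pkib*, *Tfec*, *Dab2*, *Dpp4* and *Spink1* and had 0 UMIs of either gene. Another 7 tdTom- cells of the visceral endoderm-like cluster lay in sub-cluster 7, with mostly gut cells.

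Over both fractions, these subsets were closest in *Ttr* and furthest apart in *Afp*, *Apoa4* and *Apoa1*. Sub-cluster 13 was called lower than sub-cluster 16 for 5 of the 10 genes and higher for 0, in a comparison over both fractions where 8.7% of 2666 genes were lower and 3.23% higher. *Afp* stood at 67.6 against 2281 CPM (log2 fold change -5.08), *Apoa4* at 38.0 against 600.46 CPM (-3.98) and *Apoa1* at 1192 against 8727 CPM (-2.87). *Afp*, *Apoa4* and *Cubn*, with 16, 9 and 70 UMIs in sub-cluster 13, passed the minimum through sub-cluster 16. The receptor subunits were called lower by less, *Amn* with a log2 fold change of -1.499 and *Cubn* with -1.23, and 2 tdTom- cells held 83 of the 116 *Amn* UMIs of sub-cluster 13. *Ttr*, at 10538 against 12039.8 CPM, had a log2 fold change of -0.19 and was not called, nor were *Apoe* (-0.67), *Rbp4* (-0.77), *Apob* (-0.82) and *Apom* (-0.92). The fractions are mixed unequally in these sub-clusters, so each was also compared alone, which was chosen after seeing the data. In tdTom- cells 4 genes were called lower, of which *Afp*, *Apoa4* and *Amn* had fewer than 100 UMIs in sub-cluster 13 (background 8.58% lower and 2.7% higher), and *Cubn* at -0.78 was not, while *Amn* stood at -1.17, *Apob* at -0.39 and *Ttr* at -0.06. In tdTom+ cells 7 were called lower, all with fewer than 100 UMIs in sub-cluster 13 (background 10.8% lower and 3.19% higher), with *Cubn* at -2.59, *Apob* at -2.09 and *Ttr* at -0.14. Of these tdTom+ cells, 3 of 5 in sub-cluster 16 and 0 of 6 in sub-cluster 13 reached 3 *Xist* UMIs, although the injected line is male. Whether both groups descend from the injected clone was not tested. The summed level of the set was 21951 CPM in sub-cluster 13 and 42037 CPM in sub-cluster 16. Median depth was 15737 UMIs per cell in sub-cluster 13 and 25434 in sub-cluster 16.

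Within sub-cluster 16, 8 of the 10 genes varied more from cell to cell than the set as a whole. Over its 48 tdTom- cells the 10 genes together made up between 199 and 693 of every 10000 spliced UMIs, with a median of 439 and a coefficient of variation of 25.8%. *Rbp4* (24.4%) and *Apom* (25.3%) varied least from cell to cell. *Apoa1* ranged from 24.7 to 160 UMIs per 10000 around a median of 90.1, and *Ttr* from 39.6 to 282 around a median of 123. *Afp* had a median of 23.3 and a coefficient of variation of 54.3%, with 1 cell at 0. *Apob* (50.9%, 3 cells at 0), *Cubn* (49.98%, 2 cells at 0), *Apoe* (60.2%, 2 cells at 0) and *Apoa4* (69.0%) also varied widely, and at their lower counts sampling adds more to the spread. In the 9 tdTom- cells of sub-cluster 13, the median *Ttr* level was 121 UMIs per 10000, close to that of sub-cluster 16, while *Apoa1* had a median of 7.05. *Afp* was at 0 in 3 and *Apoa4* in 4 of these 9 cells, and in the 6 tdTom+ cells *Afp* was at 0 in 4 and *Apoa4* in all 6.

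**Figure D2:**
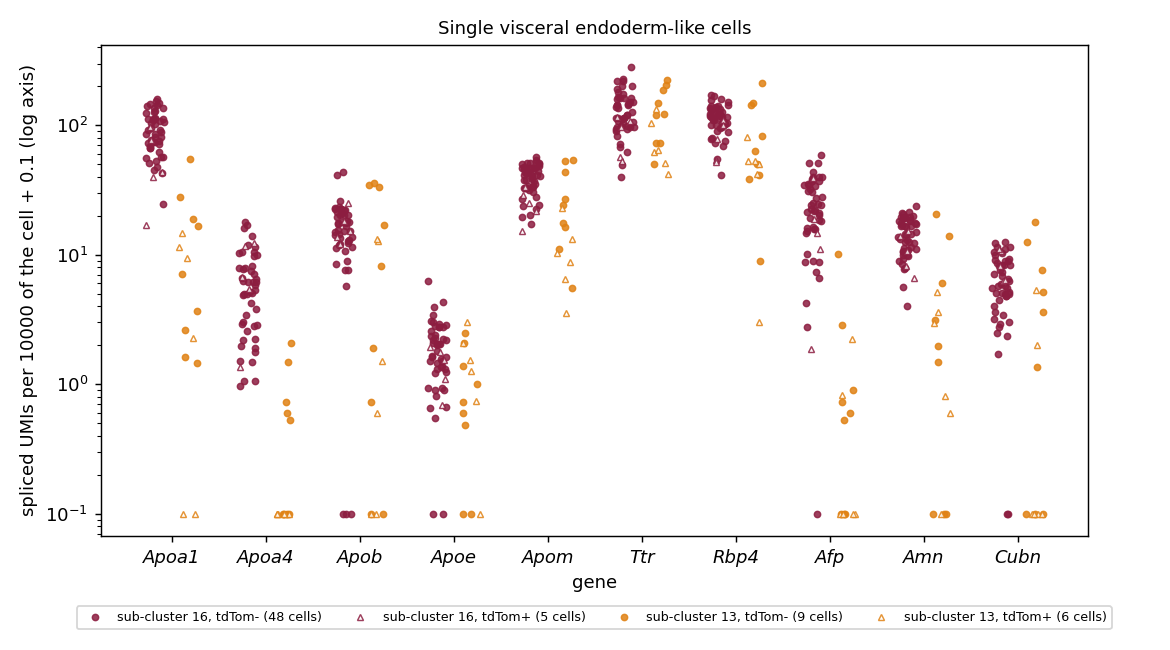
Level of the members in single visceral endoderm-like cells, in spliced UMIs per 10000, by sub-cluster and fraction, with each point a cell. Cells of sub-cluster 13 overlap the *Ttr* levels of sub-cluster 16 (medians 121 and 123 in tdTom- cells, 62.9 and 97.0 in tdTom+ cells). For *Apoa1* the tdTom- medians lie apart (7.05 and 90.1). Its tdTom- ranges still overlap, with sub-cluster 13 reaching 54.7 and sub-cluster 16 starting at 24.7.

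Some pairs of genes varied together over the 48 tdTom- cells of sub-cluster 16. As a description over cells of 1 library that share depth as a common factor, Spearman's rho was 0.79 between *Apoa1* and *Rbp4*, 0.58 between *Apoa1* and *Ttr*, 0.57 between *Ttr* and *Rbp4* and 0.57 between *Rbp4* and *Afp*. The receptor subunits *Amn* and *Cubn* had a rho of 0.42. *Apoa1* and *Apoa4*, which lie 10230 bases apart, had a rho of only 0.11. Over 30 tdTom- clusters their levels followed each other with a Pearson correlation of 0.99, which rests mainly on the visceral endoderm-like cluster.

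Of the 10 tdTom+ cells in the visceral endoderm-like cluster, 5 lay in sub-cluster 16. Their *Apoa1* UMIs were 347, 221, 369, 57 and 231, and their *Afp* UMIs in the same order of cells were 151, 61, 56, 6 and 117. All 5 thus expressed *Apoa1* and *Afp*, with the same cell lowest for both. Their *Xist* UMIs were 0, 5, 11, 24 and 0, so that 3 of 5 reached 3 UMIs although the injected line is male. *Grb10*, a gene with 6.89 CPM over all tdTom+ and 284 CPM over all tdTom- cells, stood at 12.7 CPM in these 5 cells (only 3 UMIs) and at 65.8 CPM in the 48 tdTom- cells (77 UMIs). The origin of these cells was not tested.

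With that limit, 0 of the 10 genes were called different between the fractions within sub-cluster 16, where 1.35% of 2376 genes were lower and 0.505% higher in tdTom+ cells. The log2 fold changes of tdTom+ over tdTom- ran from -0.87 for *Apoa1* to 0.46 for *Apoa4*, with *Ttr* at -0.58, *Rbp4* at -0.59 and *Afp* at -0.54. The sum of the set was 29749 CPM in the 5 tdTom+ and 44523 CPM in the 48 tdTom- cells (log2 fold change -0.58).

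In the gut clusters (351 tdTom+ and 422 tdTom- cells) the retinol transport pair led the set as counted in the tables, which understate *Apoe*. *Ttr* made up 63.2% and *Rbp4* 24.99% of the set's spliced UMIs in tdTom- gut, while *Apoa1* made up 1.40%. The pair was concentrated in sub-cluster 12 (49 tdTom+ and 50 tdTom- cells), led by *Col1a2*, *Cdkn1c* and *Hhex*, of which *Hhex* marks foregut and liver endoderm. Its tdTom- cells held *Ttr* at 3069 CPM, *Rbp4* at 1190 CPM, *Apom* at 92.6 CPM, *Afp* at 91.1 CPM and *Apoa1* at 46.3 CPM. Against the other tdTom- gut cells, 4 of the 10 genes were called higher, where 1.93% of 6155 genes were higher and 4.96% lower: *Ttr* (log2 fold change 3.80), *Rbp4* (3.73), *Afp* (2.74) and *Apom* (1.11). In tdTom+ gut the same comparison called 3 higher, with a background of 1.51% higher and 5.68% lower: *Rbp4* (3.28), *Ttr* (3.09) and *Apom* (1.64). The other 6 and 7 genes had fewer than 100 UMIs.

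Set against sub-cluster 16 of visceral endoderm in the tdTom- library, *Ttr* and *Rbp4* were called lower in sub-cluster 12, where 17.3% of 2958 genes were lower and 11.6% higher. The other 8 genes were lower too, but they had fewer than 100 UMIs in sub-cluster 12 and passed the minimum through sub-cluster 16, so that they had to differ. The gap was narrowest for the carriers *Ttr* (log2 fold change -2.05) and *Rbp4* (-3.27) and, among the apolipoproteins, for *Apoe* (-2.88). It was wide for *Apoa1* (-7.67) and for *Apob* (-6.94), where sub-cluster 12 had 31 and 9 UMIs. *Apoa4*, *Amn* and *Cubn* had only 1, 1 and 3 UMIs in sub-cluster 12. *Afp*, a classical marker of both yolk sac and fetal liver, had a log2 fold change of -4.72.

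Within sub-cluster 12 a few cells carried most of the *Rbp4* and *Afp* transcripts, but not of *Ttr*. The 5 highest tdTom- cells held 43.4% of the *Ttr*, 72.6% of the *Rbp4* and 70.5% of the *Afp* UMIs, and the 5 highest tdTom+ cells held 37.5%, 67.8% and 91.7%. The median cell had 14.9 *Ttr* UMIs per 10000 in tdTom- and 10.7 in tdTom+, with 5 of 50 and 2 of 49 cells at 0. *Rbp4* was detected in 34 of 50 and 27 of 49 cells, and *Afp* in 14 and 6. After thinning to 5000 UMIs per cell, *Ttr* was detected in 87.5% (tdTom-) and 84.8% (tdTom+) of cells, *Rbp4* in 60.4% and 41.3%, and *Afp* in 16.7% and 4.35%. *Ttr* was thus detected in most cells of the sub-cluster in both fractions. Elsewhere in gut, sub-cluster 0, led by *Nepn*, *Sfrp5* and *Osr1*, held *Ttr* at 863 CPM (tdTom+) and 1035 CPM (tdTom-) and *Rbp4* at 302 and 347 CPM.

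Between the fractions of gut as a whole, 1 of the 5 members with enough UMIs was called, where 0.82% of 7805 genes were lower and 0.154% higher in tdTom+ cells. This was *Afp*, with 43 UMIs in tdTom+ (8.05 CPM) and 130 in tdTom- (22.7 CPM), and with a log2 fold change of -1.499 (-2.03 to -0.99). *Afp* passed the minimum through the tdTom- cells, where it was high. *Ttr* stood at 406 against 554 CPM (log2 fold change -0.45), *Rbp4* at 157 against 219 CPM (-0.48), *Apom* at 30.3 against 48.8 CPM (-0.69) and *Apoa1* at 9.73 against 12.2 CPM (-0.33), and none of these was called. The direction of *Apoa1* turned to 0.23 as a mean over cells and to 0.11 after thinning. The sum of the set was 626 CPM in tdTom+ and 876 CPM in tdTom- gut, a log2 fold change of -0.48 (-0.55 to -0.42). Thinned to 5000 UMIs per cell, *Afp* had a log2 fold change of -1.66 and too few UMIs for a call. *Afp* had 12 tdTom+ and 61 tdTom- UMIs in sub-cluster 12, and 1 and 32 in the gut cells of sub-cluster 7, both under the minimum for a call. In sub-cluster 12 *Ttr* (-0.86), *Rbp4* (-0.78) and *Apom* (-0.34) were not called (background 0.811% lower and 0.171% higher), and the sum over gut without sub-cluster 12 had a log2 fold change of -0.30.

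*Ttr* also differed in opposite directions in smaller gut sub-clusters. In the gut cells of sub-cluster 7, led by *Prap1*, *Lcn2* and *Spp1*, 16 tdTom+ cells held 11 *Ttr* UMIs (37.5 CPM) and 42 tdTom- cells held 357 (599 CPM), which is a log2 fold change of -4.00. *Apom* was called lower there too (-1.91, 16 against 122 UMIs), where 2.13% of 1552 genes were lower and 0.0644% higher. Both genes passed the minimum through the tdTom- cells. Of the 42 tdTom- cells, 6 had a UMI of *Rhox5* or *Trap1a*, against 0 of the 16 tdTom+ cells, and these 6 held 177 of the *Ttr* and 70 of the *Apom* UMIs. In the other 36 cells *Ttr* stood at 381 CPM and *Apom* at 110 CPM, where the tdTom+ cells had 37.5 and 54.5 CPM. In sub-cluster 3, led by genes including *Aard*, *Pyy* and *Nkx2-3*, the tdTom+ cells held 87 *Ttr* UMIs (155 CPM) and the tdTom- cells 14 (48.8 CPM), which is a log2 fold change of 1.67 where 0.534% of 1499 genes were higher and 0.667% lower. *Ttr* passed the minimum there through the tdTom+ cells, where it was high. In that sub-cluster 5 cells held 74.7% of the tdTom+ and 85.7% of the tdTom- *Ttr* UMIs.

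**Figure D3:**
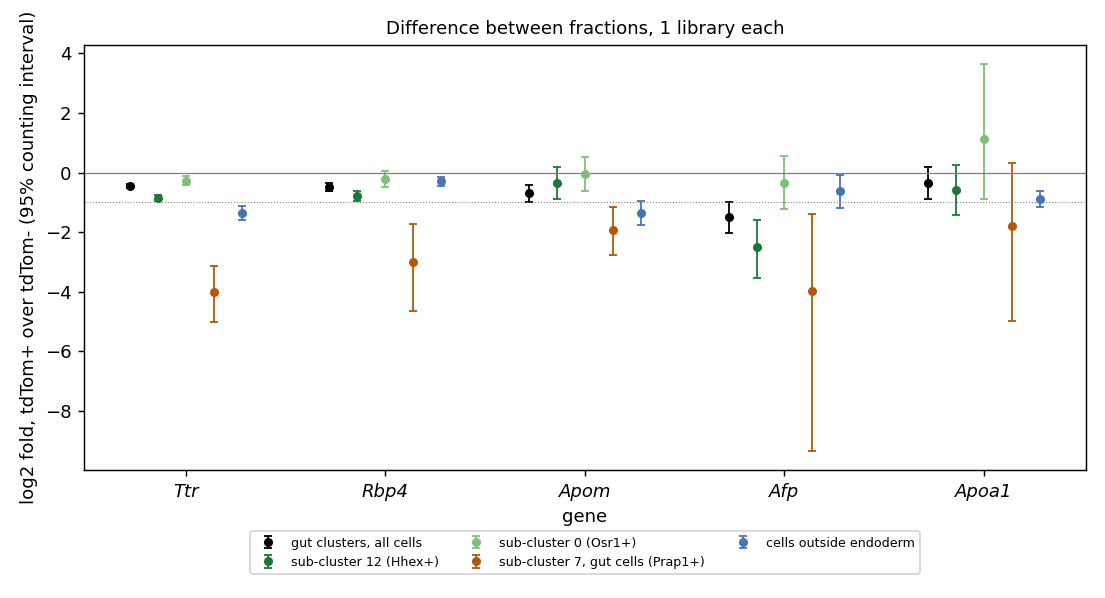
Log2 fold change of tdTom+ over tdTom- for members in each comparison, with 95% counting intervals of 1 library per fraction. *Afp* in gut lies at -1.499, and *Ttr* and *Apom* in cells outside endoderm lie at -1.34.

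Cells of visceral endoderm descent enter the gut, and *Rhox5* and *Trap1a* mark them in the mouse. A UMI of either gene was present in 74 of 422 tdTom- gut cells and in 7 of 351 tdTom+ gut cells. Over all kept cells it was present in 798 of 8704 tdTom- and 576 of 8578 tdTom+ cells, most of them outside endoderm, so that a single UMI does not show the descent of a cell. In tdTom- gut, cells with such a UMI had *Amn* at 17 UMIs against 2 in cells without one (log2 fold change 5.44), *Apob* at 27.8 against 3.35 CPM (3.05) and *Apom* at 120 against 34.9 CPM (1.77). *Apoa1* (1.03) and *Afp* (1.02) lay higher as well, whereas *Ttr* (-0.78) and *Rbp4* (-0.59) lay lower in cells with a UMI. *Amn* and *Apob* had only 19 and 42 UMIs over tdTom- gut, under the minimum for a call, and these contrasts are given as values. With such cells left out, the difference between fractions of gut had a log2 fold change of -0.56 for the sum, -0.58 for *Ttr*, -0.58 for *Rbp4*, -1.35 for *Afp* and -0.27 for *Apom*.

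Outside endoderm, 8147 tdTom+ and 8017 tdTom- cells were examined, without the notochord-like, parietal endoderm-like and extraembryonic ectoderm-like clusters and without a cluster of few UMIs per cell. In tdTom+ and tdTom- cells, levels here were 1.38 and 2.55 CPM for *Apoa1*, 0.520 and 1.32 CPM for *Apom*, 1.48 and 3.75 CPM for *Ttr* and 5.48 and 6.73 CPM for *Rbp4*. *Apoe* was at 4.11 and 2.96 CPM and *Amn* at 0.932 and 1.09 CPM. *Ttr* and *Apom* were called lower in tdTom+ cells, both with a log2 fold change of -1.34, where 1.66% of 13459 genes were lower and 1.9% higher. *Apom*, with 77 UMIs in tdTom+ and 174 in tdTom- cells, passed the minimum through the tdTom- cells. Thinned to 5000 UMIs per cell, *Apom* had a log2 fold change of -0.95 and was no longer called. Thinning leaves far fewer of these UMIs towards the minimum, so the lost call says little about the difference. *Apoa1* (-0.88), *Afp* (-0.63), *Apob* (-0.42), *Rbp4* (-0.30), *Amn* (-0.22) and *Apoe* (0.47) were not called, and *Apoa4* and *Cubn* had fewer than 100 UMIs. The pools also differed in kind, with erythroid-like cells almost all in tdTom- and blood progenitor-like cells almost all in tdTom+. The former held 113 of 494 tdTom- *Ttr* UMIs and the latter 31 of 219 tdTom+ *Ttr* UMIs. *Ttr* and *Apom* stayed called lower with blood left out, an alternative added after seeing the data. The tdTom+ library also held fewer visceral endoderm-like cells, 10 against 64, and the part of this in the lower *Ttr* and *Apom* levels was not tested.

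The ratio of each member to *Apoa1* was compared with the same ratio in visceral endoderm. In the 1446 tdTom- erythroid-like cells the ratio of *Ttr* to *Apoa1* was 1.02 times that of tdTom- visceral endoderm-like cells (0.750 to 1.39), that of *Apom* 0.967 times, *Afp* 1.08 times, *Amn* 0.946 times and *Rbp4* 0.798 times. Over all tdTom- cells outside endoderm, *Ttr* was at 0.941 times that ratio (0.818 to 1.08), *Apob* at 1.05 times and *Apom* at 1.15 times. *Rbp4* at 2.05 times (1.81 to 2.33), *Amn* at 2.60 times (2.12 to 3.17) and *Apoe* at 55.3 times (47.7 to 64.2) departed from it. *Apob* in erythroid-like cells, at 0.285 times (0.0756 to 0.763), and *Ttr* over the tdTom+ cells outside endoderm, at 0.684 times (0.563 to 0.831), lay below the tdTom- visceral endoderm ratio. In single groups the ratios also departed: in tdTom+ blood progenitor-like cells *Ttr* lay at 0.522 times (0.314 to 0.862), *Apom* at 0.408 times (0.154 to 0.925) and *Rbp4* at 0.450 times (0.253 to 0.780), and in tdTom+ cells like neuromesodermal or caudal epiblast *Ttr* lay at 0.213 times (0.0828 to 0.491). *Apom* in tdTom- neuroectoderm-like cells lay at 1.72 times (1.16 to 2.54). *Ttr* and *Apom*, pooled over tdTom- cells outside endoderm, thus stood near the proportions of visceral endoderm, and *Rbp4*, *Amn* and *Apoe* stood above them. The pooled values of *Ttr* and *Apom* do not hold in every cluster. By level, both were highest among tdTom- clusters in a surface ectoderm-like cluster of 54 tdTom- cells, led by *Tac2* and *Wnt6*. It held 14 *Ttr* and only 5 *Apom* UMIs there, with *Apoa1* at 0 CPM. In tdTom+ cells *Ttr* and *Apom* were each highest in another cluster. The value of *Apob* also mixes groups that lay below and above that ratio, with 23 of its 70 UMIs in the unnamed cluster described next.

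**Figure D4:**
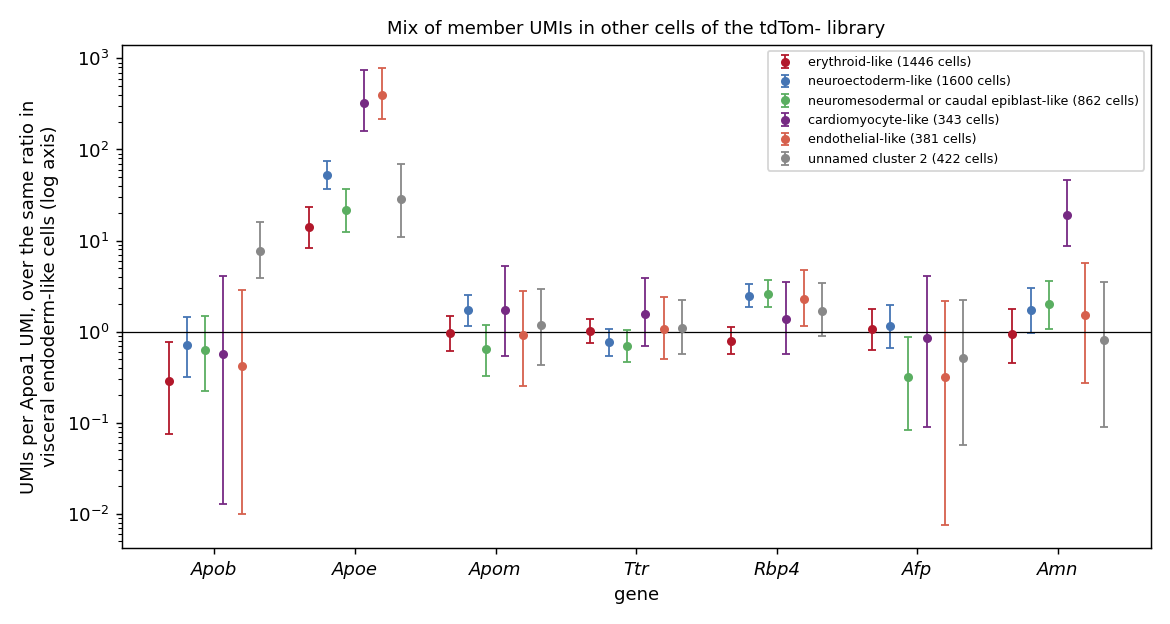
Ratio of members other than *Apoa4* and *Cubn* to *Apoa1*, divided by the same ratio in visceral endoderm-like cells (log axis), by group of tdTom- cells, with 95% counting intervals. In tdTom- erythroid-like cells *Ttr* lies at 1.02, while *Apoe* stood at 55.3 over all tdTom- cells outside endoderm, a group that is not drawn.

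The departures were spread over many cell groups. Among tdTom- cells *Apoe* lay above the visceral endoderm ratio by most in allantois-like (476 times, with 2 *Apoa1* UMIs), endothelial-like (397 times) and cardiomyocyte-like cells (323 times), and also in neuroectoderm-like (52.9 times) and erythroid-like cells (14.1 times). *Rbp4* lay above it in somite-like (3.11 times), mesenchyme-like (2.83 times) and neuroectoderm-like cells (2.47 times), among others, and *Amn* in neural crest-like (6.54 times) and surface ectoderm-like cells (2.82 times), among others. By level, *Apoe* was highest in a cluster of endothelial-like cells led by *Lyve1* and *Selenop*, at 33.1 CPM (tdTom+) and 27.3 CPM (tdTom-). *Rbp4* was highest in a cluster like neuromesodermal or caudal epiblast cells, led by *Epha5*, *Fgf8* and *Nkx1-2*, at 19.6 CPM (tdTom+) and 15.9 CPM (tdTom-). *Amn* was highest in a cardiomyocyte-like cluster led by *Actc1* and *Myl7*, at 4.79 and 9.09 CPM, with 19 and 24 UMIs. *Apob* was highest in an unnamed cluster led by *Sfrp5* and *Wnt2*, at 3.64 and 3.53 CPM, and its ratio to *Apoa1* there was 7.76 times (3.88 to 15.99) that of visceral endoderm in tdTom- cells. In each case the same cluster ranked highest in both libraries, below the level of the gene in visceral endoderm. The gap was narrowest for *Apoe*, which stood at 123 CPM (tdTom+) and 174 CPM (tdTom-) in visceral endoderm-like cells.

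Shares of cells with a UMI were read as well. After each cell was thinned to 5000 spliced UMIs, *Ttr* was detected in 100% of 62 tdTom- visceral endoderm-like cells, in 28.1% of tdTom- and 30.03% of tdTom+ gut cells, and in 1.36% (0.842% to 2.07%) of tdTom- neuroectoderm-like cells (100%, 33.2%, 37.6% and 4.56% before thinning). In gut the share was thus no lower in tdTom+ cells, although the level was, at 406 against 554 CPM, and no order of the fractions is read from it. Median depth was 22928 UMIs in tdTom- visceral endoderm-like, 13206 in tdTom- gut and 14968.5 in tdTom- neuroectoderm-like cells. Neuroectoderm of this stage is not known to express *Ttr*, and its share serves as the reference level. *Rbp4* was detected in 4.26% (15.4% before thinning) of tdTom- cells like neuromesodermal or caudal epiblast, at a median depth of 14972.5 UMIs, against 1.42% (3.94%) of tdTom- erythroid-like cells, at 18946 UMIs. In tdTom- neuroectoderm-like cells it was 3.43% (11.4%), and the interval of 2.58% to 4.46% overlapped that of the neuromesodermal or caudal epiblast-like cells, 2.99% to 5.88%. *Apoe* was detected in 7.03% (22.0%) of tdTom- endothelial-like cells, at 16022 UMIs, against 0.495% (1.31%) of the erythroid-like cells. In myeloid-like cells the share of *Apoe* was 12.5% (23.3%) of only 24 thinned tdTom- cells and 8.89% (26.1%) in tdTom+, where endothelial-like cells had 7.40% (22.6%). In surface ectoderm-like cells the sum of the set was 9.38 CPM (tdTom+) and 25.3 CPM (tdTom-), and *Rbp4* was called lower in tdTom+ cells (log2 fold change -1.30, 36 against 69 UMIs), where 0.505% of 9112 genes were lower and 0.219% higher. *Rbp4* passed the minimum there through the tdTom- cells, where it was high.

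The unspliced share divided the set. In visceral endoderm-like cells of both fractions 9.27% of all UMIs were unspliced, counted over every gene. *Cubn*, with 67 exons over 215476 bases the longest gene of the set, had 46.5% (44.2% to 48.7%), *Apob*, with 29 exons over 39188 bases, had 9.10%, and *Afp*, with 15 exons over 18171 bases, had 3.80%. The other members had less: 0.969% for *Apoa1*, 0.574% for *Ttr*, 0.497% for *Amn*, 0.194% for *Rbp4*, 0.167% for *Apom* and 0 of 874 UMIs for *Apoa4*, which allows up to 0.421%. *Apoe*, a gene of 3080 bases, had 70.7% (67.7% to 73.5%), but only of the small part of its UMIs that was kept, as described below. *Afp* had 11.2% unspliced (8.46% to 14.5%) in the 10 tdTom+ and 2.75% (2.21% to 3.38%) in the 64 tdTom- cells. The highest tdTom+ cell held 38.2% of the spliced *Afp* UMIs there, and the share of all genes that differ as much was not counted. In cells outside endoderm *Ttr* was unspliced at 1.66% and *Rbp4* at 0.527%, against 13.2% over all genes there. In gut *Ttr* stood at 0.744% and *Rbp4* at 0.381%, against 15.5% over all genes.

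**Figure D5:**
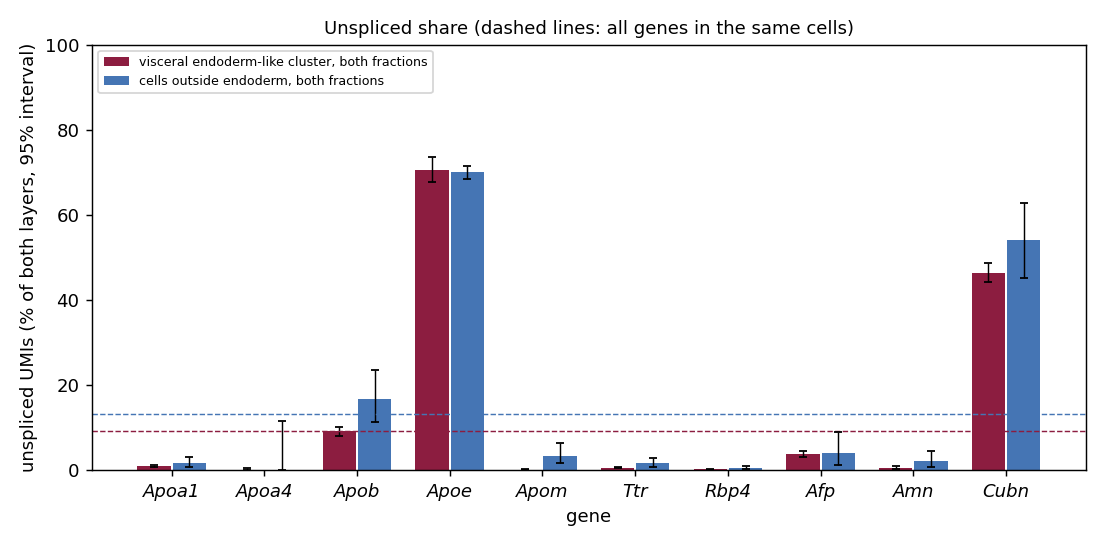
Percent of UMIs that were unspliced for each member, by cell group over both fractions, with exact 95% binomial intervals. *Apoe* (70.7%) and *Cubn* (46.5%) lie far above the share of all genes in visceral endoderm-like cells (9.27%), and 6 members lie below 1%. The *Apoe* share rests on the small part of its transcripts that was kept.

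For *Apoe* the tables kept few of the transcripts that were first counted. Cell Ranger had counted 88160 *Apoe* UMIs over all cells, the highest of the 10 genes, whereas the spliced and unspliced tables held 1476 and 3472, together 5.61% of that number. For *Apoa1*, *Apoa4*, *Apob*, *Apom*, *Ttr*, *Rbp4*, *Afp* and *Amn* the tables held 99.3% to 105%. *Cubn* stood at 195%, with 1156 spliced and 1033 unspliced against 1125 UMIs. Of 10636 genes with at least 1000 Cell Ranger UMIs, 223 (2.10%) kept a share as low as that of *Apoe*. Every *Apoe* level, rank and unspliced share above comes from the small part that was kept, and so do the sums and shares of the set that include it. The levels and sums understate the gene, and the unspliced share may not hold for its transcripts as a whole. The cause of the loss was not tested.

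Over 30 tdTom- clusters with at least 50 cells, the summed set was most like *Tdh* (Pearson correlation 0.97), *S100g* (0.96) and *Serpinf2* (0.93). The nearest genes were *Trf*, *F2* and *Slc7a9* for *Apoa1* (each 0.99), *S100g*, *Spp2* and *Tdh* for *Afp*, and *Tdh*, *S100g* and *Fabp1* for *Rbp4* (0.98, 0.97 and 0.95). *Ttr* had lower maxima, with *Tdh* at 0.96 and *Tmprss2* at 0.94. *Apoe* was least like the others, with *Slc7a7* nearest at 0.92 and correlations of 0.69 to 0.84 with the other members. Such values describe clusters of 1 library and rest mainly on the visceral endoderm-like cluster.

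Other genes of lipid and protein transport were read in the tdTom- visceral endoderm-like cells against all other kept tdTom- cells, with the same background of 12.1% higher and 17.5% lower. Of 18 plasma protein genes 7 had enough UMIs and lay higher, among them *Spp2* (532 CPM, 10.12), *Fgb* (518 CPM), *Fgg* (200.3 CPM) and *Trf* (111 CPM), the last 3 of which encode fibrinogen chains and transferrin. Of 7 other apolipoprotein genes 4 were higher, including *Apoa2* (509.8 CPM, log2 fold change 6.98), *Apoc1* (193 CPM) and *Apoc3* (118 CPM), and *Apool* was not called (38.5 CPM). Of 10 genes of lipoprotein assembly 3 were higher and 1 was lower, the higher ones including *Mttp*, which loads lipid onto *Apob* protein (229 CPM, 6.17), while *Pdia3*, *Sar1b* and *P4hb* were not called at 572, 200.3 and 176 CPM. As 12 of the 83 genes on these lists also named the cluster, 6 of them plasma protein genes, their counts are not independent of it. Genes counted mainly in the cluster also passed the minimum through it and had to differ.

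Uptake genes were raised in part. Of 7 partners of the cubam receptor 5 were higher, with *Dab2*, an endocytic adaptor, at 889 CPM (log2 fold change 5.61), *Tcn2* at 181 CPM and the large receptor *Lrp2* at 109 CPM (2.37). Of 8 lipoprotein receptor genes 3 were higher (*Lrpap1* at 658 CPM, *Scarb1* at 109 CPM and *Lrp2*) and 4 lower, while *Lrp1* was not called (23.1 CPM). Of 8 retinoid genes 2 were higher, among them *Rdh10* (48.3 CPM, 1.43), and 4 were lower, including *Crabp1* (109.95 CPM, -2.19) and *Crabp2* (60.9 CPM, -1.83). *Aldh1a2*, which makes retinoic acid, had 0 UMIs and *Stra6*, the receptor for the *Rbp4* protein, had 1. Of 10 endoderm transcription factor genes 7 were higher, with *Hnf4a* (77.7 CPM, 8.83), *Sox17* (74.9 CPM), *Foxa3* (49.0 CPM) and *Gata4* (46.9 CPM) highest, and 2 were lower.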

How the data were processed

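Single cells of both sorted fractions were profiled by 10x 3′ chemistry. Per the labels and the study's methods, the authors aligned reads with Cell Ranger 3.0.2 to mm10 (GRCm38) and counted spliced and unspliced molecules with velocyto. The deposited tables hold raw UMI counts per cell and gene (167940767 spliced UMIs in tdTom+ and 157174026 in tdTom-, with 25275340 and 24368837 unspliced), and a deposited gene table holds Cell Ranger counts summed over all cells. Another table of quality metrics per cell was not used. Of that gene table, the identifiers, chromosomes and this sum were used.

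Levels are spliced UMIs summed over a group and divided by all its spliced UMIs (CPM), with exact Poisson intervals, exact conditional intervals for folds and exact binomial intervals for shares, all at 95% and covering counting error only. Scrublet called 385 tdTom+ and 540 tdTom- doublets, which were removed. Cells were clustered in scanpy 1.11.5 (1902 variable genes, 50 principal components, 20 neighbours, Leiden resolution 1.5, igraph 0.11.9) without the 10 genes, *Xist*, *Tsix*, Y-linked genes and the reporter, 746 in all. This gave 37 clusters, of which 1 was left out as doublets. A cluster was named where at least 3 markers and 50% of a marker list were raised 2-fold with 10 CPM added. Endoderm clusters were clustered again (2172 variable genes, 30 components, 15 neighbours) into 17 sub-clusters. A call needed 100 UMIs over both groups, a 2-fold difference and an interval excluding 0. The count steps were tested on simulated data. Other tools were Python 3.11.15, numpy 2.4.6, scipy 1.17.1, pandas 2.3.3 and matplotlib 3.10.9.

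Genes were named by rule: the 10 members, the 3 genes most like each of them and like their sum (Pearson correlation of log2(CPM + 10) over tdTom- clusters), the 4 highest genes of each pathway list in visceral endoderm-like cells, *Gata1* and the markers that name or lead a cluster. *Grb10*, *Xist*, *Aldh1a2* and *Stra6* were named after their values were seen. The members and lists were chosen with earlier results of these data known, and the naming rule, the second clustering and the choice of sub-clusters followed after the data were seen. Alternatives were unspliced counts added, totals without mitochondrial and globin genes, means over cells, doublets kept, thinning to 5000 UMIs, resolution 1, a median-of-ratios scale and other minimum counts. Promoters came from RefSeq (GRCm38.p6). Protein sequences and a *Ttr* promoter were not used here. Some genes that the naming rule selects are not reported here.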

Additional observations from a re-analysis of the deposited data

Results flagged for a closer look

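The *Ttr* difference between fractions was not the same in all gut sub-clusters. The log2 fold change of tdTom+ over tdTom- was 1.67 in sub-cluster 3, -0.26 in sub-cluster 0, -0.86 in sub-cluster 12 and -4.00 in the gut cells of sub-cluster 7. The counts behind the outer values are small, 87 against 14 UMIs in sub-cluster 3 and 11 against 357 in sub-cluster 7. Each passed the minimum through the fraction where *Ttr* was high. *Amn*, the membrane anchor of the cubam receptor, likewise pointed both ways outside endoderm, with 1.05 in neuroectoderm-like cells (25 against 18 UMIs), -0.90 in cardiomyocyte-like cells (24 against 28 UMIs) and -1.73 in surface ectoderm-like cells (7 against 18 UMIs). With 1 library per fraction these differences between cell groups were not tested.

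*Apoe* stands out in counts that the comparisons did not use, with 88160 UMIs counted by Cell Ranger over all cells of both libraries, and the tables by cell kept only 5.61% of them. Transcripts of the set, with 0 UMIs of *Apoe*, were also present in a cluster of few UMIs per cell (24 tdTom+ and 66 tdTom- cells, median 1313 UMIs, led by *Dppa3*, *Ifitm3* and *Dnd1*) that was left out of the comparisons. Their sum there was 222 CPM in tdTom+ (30 UMIs) and 480.1 CPM in tdTom- cells (47 UMIs), above the 14.9 and 19.9 CPM of cells outside endoderm. In its tdTom- cells the ratio of *Ttr* to *Apoa1* was 0.907 times that of visceral endoderm-like cells, from only 17 *Ttr* and 12 *Apoa1* UMIs, too few to place it closely.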

How the results depend on the processing

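No paired analysis was possible because each fraction is 1 library, and leaving out a replicate was not possible for the same reason. All 10 members stayed higher in visceral endoderm-like cells under all 6 alternatives tried. Their sum there, 41999.5 CPM as reported, was 39388 CPM with unspliced UMIs added, 42594 CPM without mitochondrial and globin genes in the total and 44523 CPM in sub-cluster 16 alone, an alternative chosen after seeing the data. The gut sum kept its direction, from -0.56 to -0.38 over the alternatives planned, and was -0.56 without cells with a *Rhox5* or *Trap1a* UMI, -0.38 without sub-cluster 7 and -0.30 without sub-cluster 12. The sum outside endoderm ran from -0.44 to -0.18, and was -0.34 without blood, -0.65 without *Apoe* and -0.93 without *Apoe* and *Rbp4*, the last 3 added after seeing the data. Thinning to 5000 UMIs called 0 gut members in place of 1 and 1 member outside endoderm in place of 2 (*Afp* at -1.66 and *Apom* at -0.95 were no longer called). It leaves both genes with far fewer UMIs towards the minimum, so these lost calls say little about the differences. *Apoa1* in gut reversed from -0.33 to 0.23 as a mean over cells and to 0.11 in 1 draw of the thinning, with a wider gap in the separate draw given above. Without a minimum, 2.40% of all genes in gut were called in place of 0.974%. With unspliced UMIs added, *Apoa1* made up 19.3% in place of 19.7% of the set in visceral endoderm-like cells, and 9.26% in place of 12.8% outside endoderm. The unspliced share of the set was 1.06% without *Apoe* and *Cubn*, against 3.30%. The share of tdTom- neuroectoderm-like cells with *Ttr* was 4.56% unthinned against 1.36%. Sub-cluster 13 against 16 called 5 members over both fractions, 4 in tdTom- and 7 in tdTom+ cells alone, both added after seeing the data. Of 174 values of single members under alternatives, 170 kept direction and call. Of the 174, 60 were the large visceral endoderm folds, all unchanged, and most members in gut and outside endoderm were not called to begin with. The count thus says little about the calls between fractions.

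Depth limits the members with few counts: *Apoa4* and *Cubn* outside endoderm and 5 members in gut had too few UMIs for a call, and in visceral endoderm the comparison of fractions rests on 5 tdTom+ cells of sub-cluster 16. Intervals cover counting error and not differences between embryos, sorts or libraries.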
